A study of Mus musculus with 12 samples.

Results

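The genes described here are 10 genes of natural killer (NK) and cytotoxic lymphocytes, Gzma, Gzmb, Prf1, Nkg7, Nfil3, Tbx21, Eomes, Klrd1, Fcer1g and Tyrobp, taken from 19938 genes measured in mouse thymocytes and thymic lymphomas. They were chosen by name, for their known roles, and each had 1 row in the deposited table. Of the 10 genes, 7 had a mean over all arrays at or above the 25th percentile of genes (a log2 signal of 4.784) and were among the 14953 genes tested; Gzmb, Eomes and Klrd1 lay under it. The study measured 3 groups by microarray, all on the strain labelled C57/BL6: DN3 thymocytes of wild-type mice (3 arrays) and of TCF-1 KO mice (3 arrays), both 8 to 12 weeks old, and T cell lymphoma cells taken from the thymus of TCF-1 KO mice 12 to 40 weeks old (6 arrays). DN3 thymocytes are early T cell precursors that carry neither CD4 nor CD8 and are assembling the T cell receptor beta chain, and TCF-1 is a transcription factor of the T cell lineage. The arrays are labelled as biological replicates, with nothing on how the mice were related, so a p-value here measures no more than how these samples vary. All lymphomas came from mice without TCF-1, so against wild-type cells genotype, age and transformation cannot be told apart, and against TCF-1 KO DN3 cells age and transformation cannot.

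NK cells and cytotoxic T cells kill by releasing granules that hold perforin, which opens the target cell membrane, and granzymes, the proteases that then enter and start cell death. The T-box factors T-bet (Tbx21) and Eomesodermin (Eomes) switch on this granule program, while Nfil3 is a basic leucine zipper factor needed early in NK and innate lymphoid development. Receptors such as CD94 (Klrd1) read MHC class I on other cells, and activating NK receptors signal through small adaptors with an immunoreceptor tyrosine-based activation motif (ITAM), among them DAP12 (Tyrobp) and the Fc receptor gamma chain (Fcer1g). Immature thymocytes are also known to transcribe granzyme A, so a signal of Gzma in DN3 cells does not by itself mark an NK cell.

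Promoters of the 4 genes on which the results turn are shown first, as the 250 bases before the start site, read 5′ to 3′ on the strand of the gene from RefSeq sequences of GRCm38.p6. They lie at chr13:113100982-113101231 (Gzma, minus strand), chr14:56262335-56262584 (Gzmb, minus strand), chr7:43436888-43437137 (Nkg7, plus strand) and chr13:52981040-52981289 (Nfil3, minus strand). Capitals mark the core letters TGTGGT bound by RUNX factors, on either strand.
Gzma: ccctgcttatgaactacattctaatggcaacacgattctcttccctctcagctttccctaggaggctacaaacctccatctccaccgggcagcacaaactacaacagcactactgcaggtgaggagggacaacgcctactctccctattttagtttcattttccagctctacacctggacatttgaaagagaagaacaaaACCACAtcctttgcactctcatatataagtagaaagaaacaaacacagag
Gzmb: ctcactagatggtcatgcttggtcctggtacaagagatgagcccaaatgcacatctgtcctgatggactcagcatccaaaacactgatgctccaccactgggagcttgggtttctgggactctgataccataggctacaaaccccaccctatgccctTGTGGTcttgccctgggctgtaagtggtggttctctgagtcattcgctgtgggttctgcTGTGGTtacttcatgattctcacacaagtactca
Nkg7: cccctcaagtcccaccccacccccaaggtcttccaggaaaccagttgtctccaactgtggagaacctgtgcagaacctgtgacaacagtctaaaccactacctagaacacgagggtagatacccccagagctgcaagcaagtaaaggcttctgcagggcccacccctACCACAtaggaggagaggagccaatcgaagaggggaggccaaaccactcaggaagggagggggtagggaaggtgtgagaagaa
Nfil3: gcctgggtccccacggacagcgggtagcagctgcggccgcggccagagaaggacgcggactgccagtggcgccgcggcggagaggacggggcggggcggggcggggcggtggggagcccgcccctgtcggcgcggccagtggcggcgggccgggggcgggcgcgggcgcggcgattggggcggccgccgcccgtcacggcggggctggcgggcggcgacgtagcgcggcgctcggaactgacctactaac
Promoters were at hand for 8 of the 10 genes, not for Klrd1 and Tyrobp. Within 300 bases (250 before to 50 after the start) the TCF and LEF core CTTTGA, searched on both strands, was present in 0 of the 8, against 16% of the 32851 mouse promoters searched. The RUNX core was present in 5 of the 8 (Gzma, Gzmb, Nkg7, Prf1 and Fcer1g), against 16.8% of all promoters, and this motif was chosen after the expression values were known. It begins at -50 in Gzma, at -93 and -34 in Gzmb and at -83 in Nkg7, counted from the start site. These are matches of letters, not measured binding.

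All 13 measured markers of DN3 thymocytes, among them Cd3e, Ptcra, Il2ra and Rag1, passed the filter on their mean over 12 arrays. Their mean log2 signal lay between 8.91 and 9.25 in both DN3 groups and between 8.79 and 9.22 in the lymphomas. Single markers differed more. Against wild-type cells 4 were called lower and 2 higher in the lymphomas, where 2.86% of all genes tested fell and 2.96% rose. Rag1 stood at 10.30 to 10.53 in wild-type cells and 7.42 to 9.63 in the lymphomas. Rag2 stood at 6.54 to 6.82 and 4.84 to 6.48. Cd2 went the other way, from 5.49 to 5.81 in wild-type cells to 9.25 to 10.02 in the lymphomas. Of 8 defining NK cell markers, Ncr1, Klrb1c, Klrk1, Klre1 and Klra8 lay under the filter, with no array above 4.40. The deleted gene itself was not analysed here, and the genotype is taken from the labels. A batch effect that no label records, seen in 35 rows without a gene name, split the arrays. The smaller batch held replicate 1 of both DN3 groups and lymphomas 1 and 2, and the larger batch the other 8 arrays, so differences are also given within batches. Low Xist marked TCF-1 KO replicate 3 and lymphomas 1, 2 and 6 as likely from males, and no wild-type array.

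Gzma, encoding granzyme A, a serine protease of cytotoxic granules, was higher in cells without TCF-1. Its log2 signal was 10.29, 10.49 and 10.40 on the wild-type DN3 arrays and 11.16, 11.14 and 10.93 on the TCF-1 KO DN3 arrays. The lymphomas stood at 11.06, 11.23, 11.41, 11.22, 10.62 and 10.81. Every array without TCF-1 thus lay above every wild-type array, and lymphomas 5 and 6 were the lowest of the cells lacking it. From 10.39 ± 0.10 (SD, n = 3) in wild-type cells, Gzma rose by 0.68 (SE 0.12, limma adjusted p = 0.017) to 11.08 ± 0.13 (SD, n = 3) in TCF-1 KO DN3 cells, or 1.6-fold. It rose by 0.66 (SE 0.15, limma adjusted p = 0.0238) to 11.06 ± 0.29 (SD, n = 6) in the lymphomas. Both comparisons rest on the same 3 wild-type arrays. The first difference was 0.87 in the smaller and 0.59 in the larger batch, and the second 0.86 and 0.57; in the larger batch alone neither was called (limma adjusted p = 0.0938 and 0.232). In sorted bulk samples a larger share of cells with a transcript and more of it per cell cannot be told apart.

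Lymphomas and TCF-1 KO DN3 cells differed in Gzma by -0.02 (95% limits -0.36 to 0.32). The calls against wild-type cells depended on the number of wild-type arrays: without replicate 1, 2 or 3 the limma adjusted p was 0.081, 0.0752 and 0.0636 for TCF-1 KO DN3 cells, with differences of 0.63 to 0.75 over all arrays left out in turn. For the lymphomas the same omissions gave 0.123, 0.0716 and 0.0927. In 1 fit to all 12 arrays the limma adjusted p for TCF-1 KO DN3 cells was 0.0543.

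Gamma-delta T cells and NK cells are other lymphocytes that can carry Gzma, so their markers were read on the same arrays. On the scale of summed signals (log2), 10 gamma-delta T cell markers stood at 9.05 to 9.17 in wild-type DN3 cells, 9.39 to 9.61 in TCF-1 KO DN3 cells and 9.60 to 10.74 in the lymphomas, and no array without TCF-1 lay below a wild-type array. Of the 9 tested, 1 rose in TCF-1 KO over wild-type DN3 cells, 3 in the lymphomas over wild-type and 2 over TCF-1 KO DN3 cells, where 0.568%, 2.96% and 4.5% of all genes tested rose, and none of the 9 fell. The 8 defining NK markers stood at 7.48 to 7.67, 7.66 to 7.72 and 7.73 to 8.13 as summed signals, the nearest arrays being lymphoma 1 (7.73) and TCF-1 KO replicate 2 (7.72). As mean log2 signals they stood at 4.35 to 4.51, 4.50 to 4.60 and 4.47 to 4.85, so that all 3 groups overlapped. Of these genes Il2rb was the 1 of the 3 tested that rose, in both lymphoma comparisons. The part of such cells in the Gzma difference was not tested. The summed level of 7 B cell markers was 7.55 to 7.67 in the lymphomas, below 7.83 to 8.03 in the DN3 groups. Of the 4 tested, 1 was called lower in each lymphoma comparison, where 2.86% and 2.12% of all genes tested fell. Cd79b stood at 6.05 to 6.22 in wild-type cells, 5.88 to 6.14 in TCF-1 KO DN3 cells and 4.98 to 5.51 in the lymphomas. The other B cell markers overlapped between wild-type cells and lymphomas.

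Gzmb, encoding granzyme B, a protease that cleaves caspases in the target cell, followed another pattern. It stood at 4.51, 4.54 and 4.36 in wild-type DN3 cells, at 5.36, 5.93 and 4.98 in TCF-1 KO DN3 cells and at 4.52, 4.44, 4.60, 4.54, 4.43 and 4.59 in the lymphomas. The 3 TCF-1 KO DN3 arrays lay above the other 9, which stayed within 4.36 to 4.60. Gzmb was left out of the main test because its mean over all arrays, 4.73, was under the filter. Fitted without a filter, it was 0.96 higher in TCF-1 KO than in wild-type DN3 cells (95% limits 0.51 to 1.41), a difference that was not called (limma adjusted p = 0.0559). In the same unfiltered fits the lymphomas were 0.90 below TCF-1 KO DN3 cells (a difference of -0.90, 95% limits -1.25 to -0.56, limma adjusted p = 0.00808). They were 0.05 above wild-type cells (95% limits -0.11 to 0.22, limma adjusted p = 0.923). The SD of Gzmb was 0.48 in TCF-1 KO DN3 cells and 0.07 in the lymphomas, while each fit takes 1 variance for both groups compared. Its limits and p are therefore uncertain. Fits with an array left out or with the batch as a term were not run for Gzmb. Replicate 2 of the TCF-1 KO DN3 group had the highest signal and replicate 3 the lowest of that group. Within the smaller and larger batch TCF-1 KO DN3 cells were 0.85 and 1.01 above wild-type cells, and lymphomas differed from TCF-1 KO DN3 cells by -0.88 and -0.92.

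Prf1, encoding perforin, the pore-forming protein of the granules, was not called in any of the 3 comparisons. Its signals were 5.66, 4.98 and 5.77 in wild-type DN3 cells, 5.88, 5.65 and 5.76 in TCF-1 KO DN3 cells and between 5.48 and 6.04 in the lymphomas, with a median of 5.63. Wild-type replicate 2 was the lowest of the 12 arrays, and apart from it the groups overlapped. The difference from wild-type cells was 0.29 (95% limits -0.12 to 0.71, limma adjusted p = 0.462) in TCF-1 KO DN3 cells and 0.22 (95% limits -0.15 to 0.59, limma adjusted p = 0.674) in the lymphomas. Without wild-type replicate 2 the lymphoma difference was -0.03.

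Nkg7, encoding a membrane protein of cytotoxic granules needed for their release, was lower in the lymphomas. Its log2 signal was 7.71, 6.77 and 6.65 in wild-type and 7.21, 6.92 and 6.05 in TCF-1 KO DN3 cells. The lymphomas stood at 5.59, 5.89, 5.24, 5.65, 5.27 and 5.62, all below every DN3 array. Against wild-type cells, at 7.04 ± 0.58 (SD, n = 3), the lymphomas, at 5.54 ± 0.25 (SD, n = 6), were 2.82-fold lower (a log2 difference of -1.50, SE 0.22, limma adjusted p = 0.00106). Against TCF-1 KO DN3 cells, at 6.73 ± 0.61 (SD, n = 3), they were 2.27-fold lower (a log2 difference of -1.18, SE 0.22, limma adjusted p = 0.00862). The first call held under each of 19 alternatives run, with a highest adjusted p of 0.00602. The second was not called without TCF-1 KO DN3 replicate 1 (-0.94, limma adjusted p = 0.0511) or in the larger batch alone (-1.04, limma adjusted p = 0.0517).

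Replicate 1 had the highest Nkg7 signal in both DN3 groups, and it belongs to the smaller batch. Within the smaller and larger batch the lymphomas differed from wild-type cells by -1.97 and -1.26 and from TCF-1 KO DN3 cells by -1.47 and -1.04. Between the DN3 groups the difference was -0.31 (SE 0.31, limma adjusted p = 0.649) and was not called, and it came to 0.02 without wild-type replicate 1 and to 0.03 without TCF-1 KO replicate 3.

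Nfil3, the factor of early NK and innate lymphoid development, was highest in the lymphomas. It stood at 5.91, 5.44 and 5.23 in wild-type DN3 cells, at 6.79, 5.84 and 6.37 in TCF-1 KO DN3 cells and at 6.76, 7.21, 6.59, 6.95, 6.64 and 6.60 in the lymphomas. The lymphomas lay above every wild-type array, and TCF-1 KO DN3 cells overlapped with both other groups. Nfil3 rose 2.4-fold from wild-type cells, at 5.53 ± 0.35 (SD, n = 3), to the lymphomas, at 6.79 ± 0.25 (SD, n = 6). The log2 difference was 1.27 (SE 0.17, limma adjusted p = 0.000549). This call held under each of 19 alternatives run. Of these, the sex term rests on lymphomas 3 to 5 and the replicate number as a block on lymphomas 1 to 3.

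TCF-1 KO DN3 cells, at 6.33 ± 0.48 (SD, n = 3), were 0.81 above wild-type cells in Nfil3 (95% limits 0.29 to 1.32) without being called (limma adjusted p = 0.118). With the replicate number as a block, which pairs wild-type and TCF-1 KO DN3 arrays, the same difference was called (limma adjusted p = 0.00331), as it was with the array batch as a term (0.00688) and without TCF-1 KO replicate 2 (1.05, limma adjusted p = 0.0353). The lymphomas were 0.46 above TCF-1 KO DN3 cells (95% limits 0.04 to 0.88, limma adjusted p = 0.17). Within the smaller and larger batch Nfil3 differed from wild-type cells by 0.88 and 0.77 in TCF-1 KO DN3 cells and by 1.07 and 1.36 in the lymphomas.

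The T-box genes showed small differences. Tbx21, encoding T-bet, stood at 5.49, 5.33 and 5.34 in wild-type DN3 cells, at 5.54, 5.44 and 5.76 in TCF-1 KO DN3 cells and at 5.16 to 5.43 in the lymphomas, with a median of 5.34. The lymphomas lay below every TCF-1 KO DN3 array, the nearest being 5.43 and 5.44, with a difference of -0.28 (95% limits -0.50 to -0.05) that was not called (limma adjusted p = 0.122). Differences from wild-type cells were 0.19 (95% limits -0.08 to 0.47) in TCF-1 KO DN3 cells and -0.08 (95% limits -0.28 to 0.11) in the lymphomas. Eomes, its close relative, lay under the filter, at 4.76, 4.61 and 4.66 in wild-type, 4.93, 4.68 and 4.71 in TCF-1 KO DN3 cells and 4.72 to 4.91 in the lymphomas. Over all 12 arrays Eomes spanned 0.32 log2 units and its groups overlapped.

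Klrd1, encoding CD94, a lectin-like receptor subunit that pairs with NKG2 chains, lay between 3.86 and 4.38 on the 12 arrays, under the filter. It stood at 3.86, 4.17 and 4.17 in wild-type DN3 cells, at 3.98, 4.00 and 4.06 in TCF-1 KO DN3 cells and at 3.91 to 4.38 in the lymphomas, and the groups overlapped. In fits without a filter the largest of its differences was 0.11, of lymphomas over TCF-1 KO DN3 cells (95% limits -0.11 to 0.34). An array signal this low cannot be told from background in this table, which carries no detection calls.

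Of the adaptor genes, Fcer1g differed little between groups and Tyrobp varied between tumours. Fcer1g stood at 4.92, 4.82 and 4.91 in wild-type DN3 cells, at 4.90, 4.80 and 4.87 in TCF-1 KO DN3 cells and at 4.75, 4.70, 5.07, 5.01, 4.87 and 4.97 in the lymphomas. Its differences were -0.02, 0.01 and 0.04 in the 3 comparisons, with 95% limits within -0.26 to 0.26. The mean of Fcer1g over all arrays, 4.88, was just above the filter of 4.784, so small changes of it cannot be seen. Tyrobp stood at 5.79, 6.05 and 5.76 in wild-type DN3 cells, at 6.07, 5.74 and 6.26 in TCF-1 KO DN3 cells and at 5.47, 5.99, 6.60, 6.53, 5.89 and 5.81 in the lymphomas. Lymphomas 3 and 4 had the highest Tyrobp signals of the 12 arrays and lymphoma 1 the lowest. The lymphomas differed in Tyrobp from wild-type cells by 0.18 (95% limits -0.29 to 0.66) and from TCF-1 KO DN3 cells by 0.02 (95% limits -0.47 to 0.51), and neither difference was called.

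Both adaptors are also made by myeloid and mast cells, so markers of these cells were set beside them. The mean log2 signal of 23 such markers was 4.99, 5.00, 5.15, 5.07, 4.95 and 4.89 in lymphomas 1 to 6, against 4.88 to 4.92 in wild-type and 4.90 to 5.02 in TCF-1 KO DN3 cells. On the scale of summed signals (log2) the list stood at 9.82, 9.76, 9.58 and 9.54 in lymphomas 1, 4, 5 and 6 and at 10.49 in lymphoma 3, with lymphoma 2 between lymphomas 1 and 3, against 9.51 to 9.60 in wild-type and 9.52 to 9.65 in TCF-1 KO DN3 cells. By the mean lymphomas 3 and 4 were thus highest, and by the sum lymphomas 3, 2 and 1. In lymphomas 3 and 4, the cathepsin gene Ctss was at 6.75 and 6.77 and the macrophage protein gene Mpeg1 at 5.11 and 5.37, above the other 10 arrays in both genes. The myeloid marker Cd68, at 6.38 and 6.51, also lay above the other 10 arrays there. So did Lyz2, in which the other 10 arrays reached 5.04 at most. Not every myeloid marker was raised in lymphomas 3 and 4. S100a9, a neutrophil and monocyte gene, was at 4.55 and 4.40, the lowest of the 6 lymphomas. Itgam (4.75 and 4.67), Fcgr2b (4.94 and 5.04) and Csf1r (4.95 and 5.01) lay within the range of the other arrays. Cpa3, a mast cell and progenitor carboxypeptidase, was at 7.76, 8.46 and 9.40 in lymphomas 1, 2 and 3, at 5.62 to 5.93 in lymphomas 4 to 6, at 6.75, 7.09 and 6.02 in wild-type and at 5.74 to 5.83 in TCF-1 KO DN3 cells. In contrast Fcer1a, Ms4a2 and Mcpt8, further mast cell and basophil genes, stayed at or below 4.80 on every array. None of the 15 myeloid and mast cell markers tested was called in limma in any of the comparisons. The part of such cells in the Tyrobp and Fcer1g signals was not tested. The markers named here were picked out after their values were seen.

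**Figure D1:**
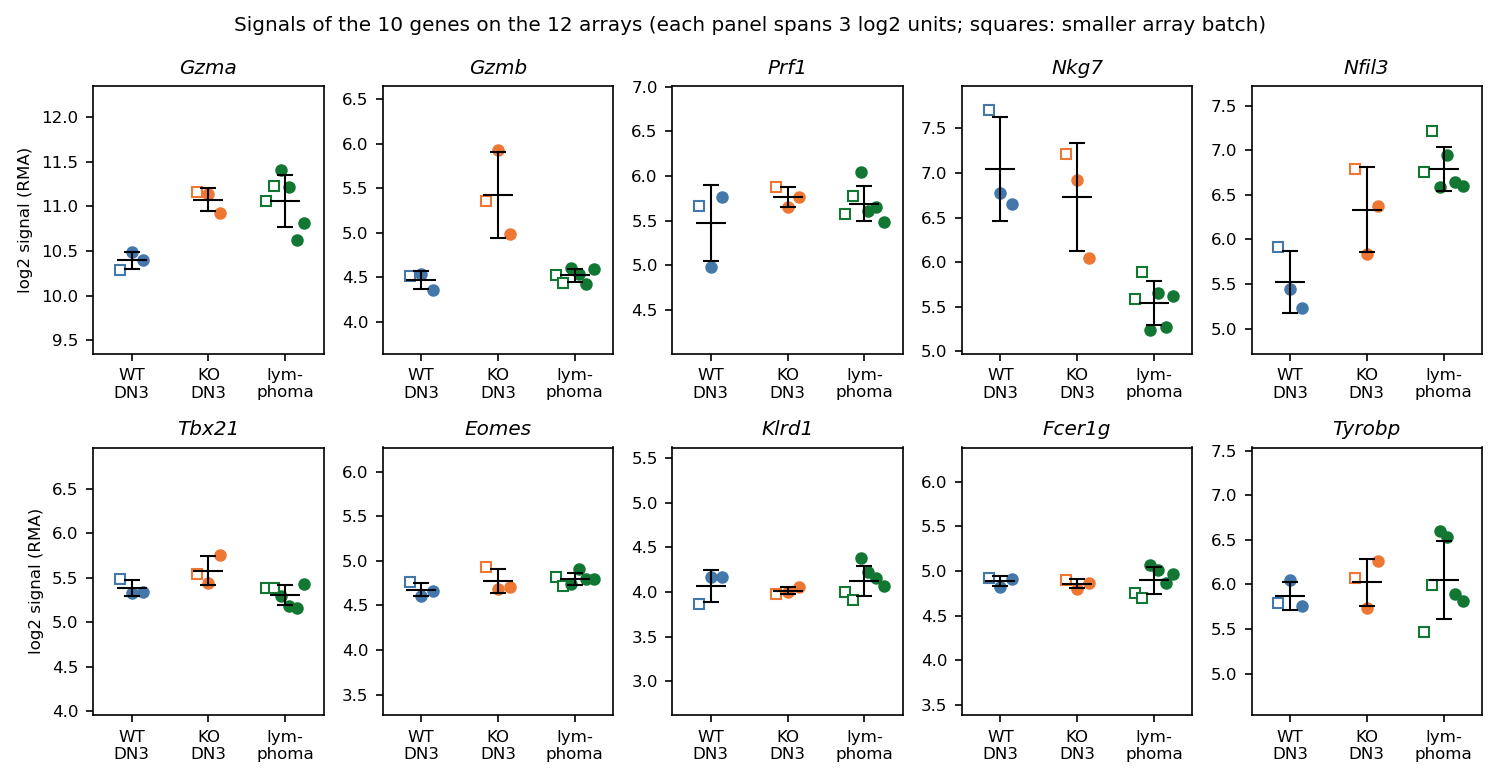
Log2 signal (RMA) of each of the 10 genes on the 12 arrays, by group; points are arrays (open squares: the smaller array batch), bars the mean and SD, and each panel spans 3 log2 units. Gzma sits higher in both groups without TCF-1, Gzmb is raised on the 3 TCF-1 KO DN3 arrays (4.98 to 5.93), Nkg7 is lowest and Nfil3 highest in the lymphomas.

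Counted over the 7 genes that could be tested, 1 rose (Gzma) and 0 fell in TCF-1 KO against wild-type DN3 cells, where 0.568% of all genes tested rose and 1.42% fell. The median difference of the 7 was 0.19, against 0.03 over all genes tested. With the replicate number as a block, which pairs these arrays, 2 rose (Gzma and Nfil3) and 0 fell, where 2.88% of all genes tested rose and 6.35% fell. In the lymphomas against wild-type cells 2 rose (Gzma and Nfil3) and 1 fell (Nkg7), where 2.96% of all genes rose and 2.86% fell, and the medians were 0.18 and -0.01. Against TCF-1 KO DN3 cells 0 rose and 1 fell (Nkg7), where 4.5% of all genes rose and 2.12% fell, and the medians were -0.02 and -0.03. With the arrays centred on their medians the calls over all genes in that last comparison were 966 higher and 206 lower in place of 673 and 317. At an unadjusted limma p under 0.05 there were 2, 3 and 3 of the 7 genes in the 3 comparisons. The share of all genes tested at that unadjusted threshold was not counted, so these numbers are not read as a result.

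Arrays of the groups did not overlap for 1, 3 and 2 of the 7 tested genes, where 22%, 10.3% and 13.6% of all genes tested did not overlap. Counting Gzmb, they did not overlap for 2, 3 and 3 of the 10 genes. The shares given cover the tested genes only, and none was counted with the genes under the filter. The comparisons share samples, so their counts are not independent.

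**Figure D2:**
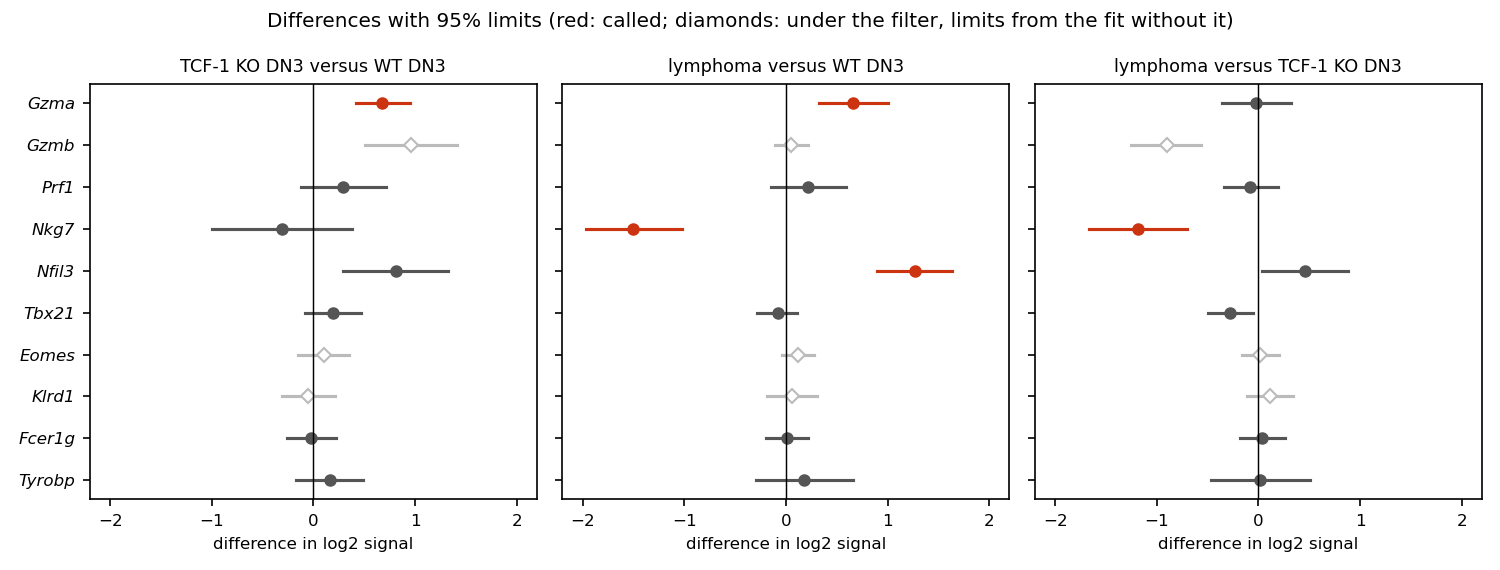
Differences in log2 signal (horizontal axis) of the 10 genes in the 3 comparisons, with 95% limits; red marks genes called at a limma adjusted p under 0.05, and diamonds the genes under the filter, with limits from the fit without it. Gzma lies at 0.68 and 0.66 above wild-type cells in both groups without TCF-1, and Nkg7 at -1.50 and -1.18 in the lymphomas.

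Further genes that serve NK or cytotoxic cells were read from 6 lists, each count of which is set against the share of all genes tested. Some of them are not particular to such cells. Cd3e and Cd3g are among the DN3 markers above, and Lef1 stood at 8.81 and Ikzf2 at 8.85 in wild-type DN3 cells. The counts are therefore not read as a cytotoxic program. In TCF-1 KO DN3 cells 0.568% of all genes tested rose and 1.42% fell (2.88% and 6.35% with the replicate block), in the lymphomas 2.96% and 2.86% against wild-type and 4.5% and 2.12% against TCF-1 KO DN3 cells. The medians over all genes tested were 0.03, -0.01 and -0.03. Of 18 further granule effectors and death ligands, such as other granzymes, Fasl and serglycin (Srgn), 10 were bright enough to test. None was called in TCF-1 KO DN3 cells or in the lymphomas against wild-type cells, with medians of 0.06 and -0.07, while 1 fell in the lymphomas against TCF-1 KO DN3 cells (median -0.10). This was Ctsc, the protease that activates progranzymes, with a difference of -0.43 (limma adjusted p = 0.0495). The call rested on most arrays: it was lost in 8 of the 9 fits with 1 array left out, the exception being lymphoma 4, with an adjusted p up to 0.142. With the replicate block 1 of the 10, Srgn, was called lower in TCF-1 KO DN3 cells, where 6.35% of all genes were.

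Of 14 genes of granule secretion, Vamp7, a vesicle fusion protein, fell in TCF-1 KO DN3 cells (-0.73) and the other 13 did not pass (median -0.09). In the lymphomas against wild-type cells Sytl2, a Rab27 effector, and Dock8, an actin regulator, fell by 0.67 and 0.41 and 12 did not pass (median -0.09). In the lymphomas against TCF-1 KO DN3 cells the lysosomal membrane gene Lamp2 (0.90) and Vamp7 (0.59) rose, Sytl2 fell by 0.59 and 11 did not pass (median 0.05). Of these calls that of Vamp7 in the lymphomas held whichever array was left out. The first was lost without wild-type replicate 1 or 2 or TCF-1 KO replicate 3 (limma adjusted p = 0.055, 0.099 and 0.0582). Against wild-type cells Sytl2 was lost without wild-type replicate 1 or 2 (0.0597 and 0.0872) and Dock8 without replicate 2 (0.0979). In the comparison with TCF-1 KO DN3 cells Lamp2 and Sytl2 were lost without TCF-1 KO replicate 3 (0.0757 and 0.0667). The replicate block called 3 of the 14 lower (Vamp7, Dock8 and Lamp2) in TCF-1 KO DN3 cells, where it called 6.35% of all genes lower.

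Among NK cell receptors, 21 of 25 listed had a row and 7 were tested, so most of this list was under the filter. Cd160, a receptor of NK and intraepithelial T cells, was the 1 gene called. It rose from 5.48 ± 0.34 (SD, n = 3) in wild-type cells to 7.13 ± 0.44 (SD, n = 6) in the lymphomas (difference 1.65, limma adjusted p = 0.000951) and stood at 6.15 ± 0.35 (SD, n = 3) in TCF-1 KO DN3 cells. The lymphomas were 0.98 above the latter (limma adjusted p = 0.029). That call was lost without any 1 of the TCF-1 KO replicates (adjusted p of 0.0505, 0.0856 and 0.1 for replicates 1, 2 and 3) and without lymphoma 2 or 3 (0.0555 and 0.0527). Within the smaller and larger batch Cd160 was 2.27 and 1.34 above wild-type cells in the lymphomas. None of the 7 was called in TCF-1 KO DN3 cells (median 0.18, and 0.07 and -0.08 in the lymphoma comparisons), where the replicate block called 1 of the 7 higher (Cd160) and 1 lower (Cd96), against 2.88% and 6.35% of all genes. Many receptors of this list belong to gene families of near-identical members, whose rows may share signal.

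ITAM-linked adaptors and kinases, of which 16 were tested, showed calls in both directions. Fyn, a Src-family kinase, rose by 0.88 in TCF-1 KO DN3 cells and by 1.54 in the lymphomas over wild-type cells. In the lymphomas Zap70, the kinase of CD3 zeta, rose by 1.17 and the SLAM adaptor gene Sh2d1a by 1.04, while Plcg2, a phospholipase of ITAM signalling, fell by 0.39 and Cd3g and Syk fell as well. Zap70 stood at 6.23 ± 0.23 (SD, n = 3) in wild-type cells and 7.41 ± 0.25 (SD, n = 6) in the lymphomas (SE of the difference 0.15, limma adjusted p = 0.00043). Over TCF-1 KO DN3 cells Fyn (0.66), Plcg1 (0.63) and Cd3e (0.59) rose. In all 1 rose and 15 did not pass in the first comparison (median -0.08), 3 rose, 3 fell and 10 did not pass in the second (0.01), and 3 rose and 13 did not pass in the third (0.14). The replicate block called 3 higher (Fyn, Sh2d1a and Zap70) and 2 lower (Plcg1 and Vav1) of the 16 in TCF-1 KO DN3 cells, against 2.88% and 6.35% of all genes. The Fyn call there was lost without any of wild-type replicates 1 to 3 or TCF-1 KO replicates 1 and 2, with adjusted p between 0.0667 and 0.118, and Plcg2 was lost without wild-type replicate 1 or 3 (0.0891 and 0.107). Over TCF-1 KO DN3 cells, Plcg1 and Cd3e were lost without TCF-1 KO replicate 1 (0.064 and 0.096) or 3 (0.062 and 0.0794), and Fyn without those replicates (0.0622 and 0.125) or without lymphoma 3 or 6 (0.0545 and 0.0541).

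Of 18 tested transcription factors of NK and effector cells, Ikzf3, encoding Aiolos (1.89), and Lef1 (1.01) rose in TCF-1 KO DN3 cells, and Zeb2, a factor of terminal effector maturation, fell (-0.97), with 15 not passing and a median of 0.04. In the lymphomas against wild-type cells 7 rose, 1 fell and 10 did not pass, with a median of 0.32, where 2.96% of all genes rose and 2.86% fell and their median was -0.01. Among them Ikzf3 rose by 3.31 (SE 0.13, limma adjusted p = 4.75e-08), Lef1 by 1.43 and Ikzf2, encoding Helios, by 1.17, Zeb2 fell by 1.14, and Id2, Gata3, Ets1 and Tox were the other rises. Against TCF-1 KO DN3 cells 6 rose, 0 fell and 12 did not pass (median 0.18, and -0.03 over all genes, of which 4.5% rose), led by Ikzf3 (1.42), Ikzf2 (0.93), Gata3 (0.89) and Ets1 (0.48). The Ets1 call was lost without TCF-1 KO replicate 1 (adjusted p of 0.0597) and that of Zeb2 in TCF-1 KO DN3 cells without wild-type replicate 1 or 2 or TCF-1 KO replicate 3 (0.0669, 0.104 and 0.0889). The replicate block called 4 higher (with Id2 and Klf2) and 2 lower (with Stat4) of the 18 in TCF-1 KO DN3 cells, against 2.88% and 6.35% of all genes.

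Of 17 tested cytokine and cytokine receptor genes, Il7r, the receptor of interleukin 7, fell by 1.01 in TCF-1 KO DN3 cells and the other 16 did not pass (median 0.05). In the lymphomas Il2rb, the chain shared by the interleukin 2 and 15 receptors and a defining NK marker, rose from 5.00 ± 0.02 (SD, n = 3) in wild-type cells to 5.94 ± 0.33 (SD, n = 6), by 0.93 (SE 0.17, limma adjusted p = 0.00498). Ifngr1, the interferon gamma receptor, and Il7r fell in that comparison (-1.64 and -2.30), with 14 not passing (median 0.02). Against TCF-1 KO DN3 cells Il2rb rose by 0.86, Ifngr1 fell by 1.20 and 15 did not pass (median 0.05). The Il7r call was lost without wild-type replicate 2 or 3, at an adjusted p of 0.0935 and 0.0627 in TCF-1 KO DN3 cells and 0.0593 and 0.0542 in the lymphomas, and the Il2rb rise over TCF-1 KO DN3 cells without TCF-1 KO replicate 3 (0.0752). The replicate block called 2 of the 17 lower (Ifngr1 beside Il7r) in TCF-1 KO DN3 cells, against 6.35% of all genes.

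**Figure D3:**
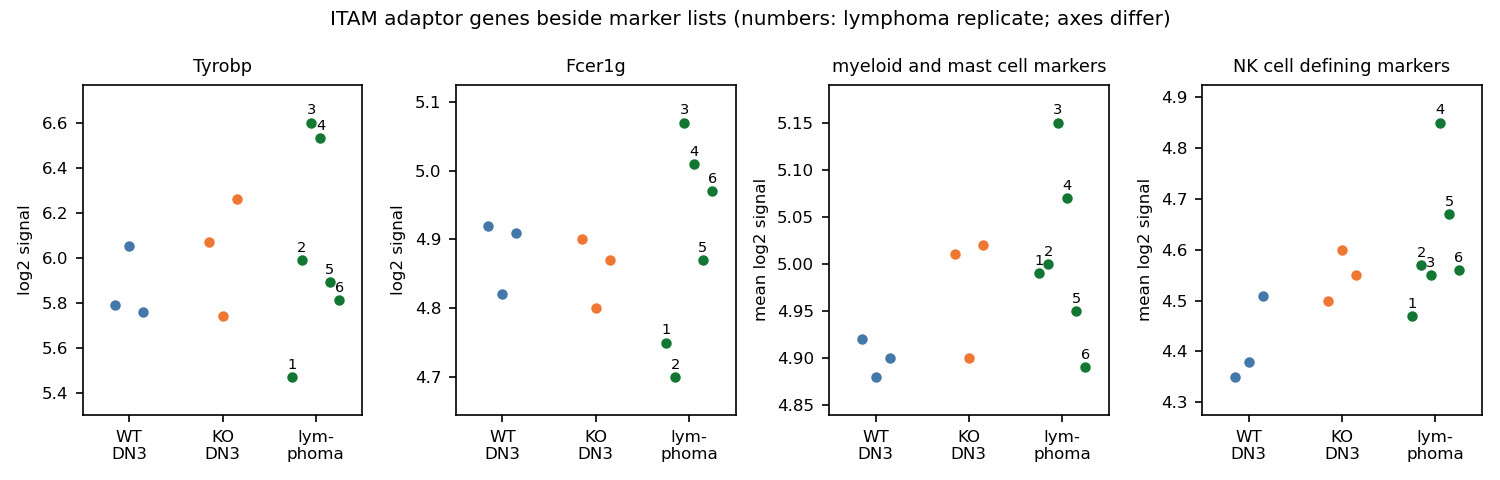
Log2 signal of Tyrobp and Fcer1g and mean log2 signal of 23 myeloid and mast cell markers and 8 defining NK markers on each array, by group; numbers give the lymphoma replicate, and the vertical axes differ. Lymphomas 3 and 4 have the highest Tyrobp and Fcer1g levels and the highest mean of log2 myeloid marker signals (5.15 and 5.07), while by summed signals lymphomas 1 and 2 lie above lymphoma 4, and lymphoma 4 the highest mean of NK markers (4.85).

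For the genes whose 12 values spanned at least 1 log2 unit, the tested genes with the most similar profile were found by Pearson's r over the 12 arrays. These points share groups and batches, so r describes a likeness only. Gzma was most like Heg1 (0.95), Pdlim5 (0.95) and Agpat3 (0.91). Heg1 stood at 7.33 to 7.57 in wild-type DN3 cells, 8.26 to 8.37 in TCF-1 KO DN3 cells and 8.15 to 8.99 in the lymphomas. Gzmb was most like B4galnt2 (0.95), Mylk (0.95) and the interferon-induced gene Ifit1 (0.93), which stood at 5.79 to 6.07 in TCF-1 KO DN3 cells, 5.36 to 5.56 in wild-type cells and 5.43 to 5.60 in the lymphomas. Nkg7 was most like Lypd6b (0.98), AW112010 (0.96) and Tgfbr1 (0.95), and Nfil3 most like Zap70 (0.96), Dclre1a (0.93) and Lrrc19 (0.93). Tgfbr1, a TGF-beta receptor, went from 8.08 to 8.40 in wild-type cells to 6.66 to 7.02 in the lymphomas. For Prf1, which differed mainly on wild-type replicate 2, the nearest were Lrrc43 (0.93), Gm5901 (0.90) and Krt77 (0.89), and for Tyrobp Defb45 (0.85), Inmt (0.84) and Dennd3 (0.83).

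Across the 6 lymphomas 4 pairs of the genes were correlated, with exact two-sided permutation tests over all 720 orders of the tumours. Tyrobp and Fcer1g had r = 0.72 (exact p = 0.113, adjusted over the 4 pairs 0.45) and rho = 0.60 (exact p = 0.242, adjusted 0.474). With lymphomas 1 and 2 left out r was 0.80, and the relation was not past the threshold. Gzma and Gzmb had r = 0.35 (exact p = 0.463, adjusted 0.617) and rho = 0.49 (exact p = 0.356, adjusted 0.474), and r = 0.50 without lymphomas 5 and 6. Gzmb and Prf1 had r = 0.10 (exact p = 0.896, adjusted 0.896) and rho = -0.03 (exact p = 1, adjusted 1), and r = 0.43 without lymphomas 2 and 5. Tbx21 and Eomes had r = -0.47 (exact p = 0.347, adjusted 0.617) and rho = -0.49 (exact p = 0.356, adjusted 0.474), and r = 0.42 without lymphomas 4 and 5. Gzmb and Eomes lay under the filter and spanned only 0.17 and 0.19 log2 units over the lymphomas. The pairs with either gene therefore cannot decide whether a relation exists. In none of the 10 genes was a single lymphoma set apart from the other 5 by Dixon's test, where the widest gap took 0.47 of the range (Prf1, lymphoma 3) against a critical value of 0.625.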

How the data were processed

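Cells were sorted into lysis reagent and their RNA was amplified with a NuGEN kit for picogram inputs, per the labels' protocols, then measured on Affymetrix arrays. The log2 signals used here are those the authors deposited, 1 per transcript cluster; RMA and Partek are named in the submitters' processing notes. Versions and settings are not given there, and base 2 was read from the range of the values. RMA forces the arrays to 1 distribution and compresses dim and very bright signals, so fold changes of both are understated. The number of arrays limits the precision.

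Of 35556 rows, 21789 had 1 gene symbol in the platform annotation, 1621 several and 12146 none; 21698 of the first matched the RefSeq table of GRCm38.p6, used for names. The brightest row stood for a gene, which left 19938 genes, of which 14953 at or above the 25th percentile of the mean over 12 arrays were tested. Each comparison was fitted on its own groups with limma 3.58.1 in R 4.3.3, two-sided, with Benjamini-Hochberg adjustment over all genes tested, and called means an adjusted p under 0.05. The code was tested on simulated data.

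The 10 genes, the lists and the tests were chosen with earlier results of these data known, so patterns seen before are not independent support. Named genes were the 10, up to 4 called genes per list with the lowest p and, for genes spanning 1 log2 unit, the 3 most similar. Wild-type and TCF-1 KO DN3 arrays of the same replicate number deviated together from their group means (r = 0.51, 0.42 and 0.25), which pairs them here. No label states this pairing, and it was read from the same values that the block fits use. Number 1 shares a batch, so pairing and batch cannot be told apart for it. Its batch shift also enters the group means from which the other numbers deviate. The batches were found from 35 unnamed rows with a gap of at least 1 log2 unit between arrays (14 rows for the next split). Alternatives covered centring, filters, averaged rows, the variance model, 1 fit to all arrays, the replicate block, batch, sex read from Xist, and each array left out.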

Additional observations from a re-analysis of the deposited data

How the results depend on the processing

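Gzma, Nfil3 and Nkg7 kept their direction under every alternative in the comparisons in which they were called, and the calls of Nkg7 and Nfil3 in the lymphomas over wild-type cells held in each. TCF-1 KO against wild-type DN3 cells was the least stable comparison. In place of 298 genes called, there were 1380 with the replicate block, 754 with the batch as a term, 144 in the larger batch alone and 126 with sex as a term, and 57 to 443 with 1 array left out. TCF-1 KO replicate 3 is the only DN3 array with low Xist. The sex term in this comparison is therefore the same fit as leaving that array out, which also gave 126. Of the genes described here 1 was called, against 2 with the replicate block or the batch as a term, 0 in 1 fit to all arrays or in the larger batch alone, and 0 to 2 with 1 array left out. For the lymphomas against wild-type cells 871 genes were called, 549 in the larger batch alone and 560 to 872 with 1 array left out, and 2 to 3 of the genes described. Against TCF-1 KO DN3 cells 990 were called, 1702 with the batch as a term, 325 in the larger batch alone and 431 to 1361 with 1 array left out; of the genes described 1 was called, 2 without a filter (Gzmb added), 0 in the larger batch alone and 0 to 1 with 1 array left out. The larger batch alone holds fewer arrays, and so in effect does the comparison of DN3 groups with sex as a term. The same holds for the lymphomas against wild-type cells. No wild-type array has low Xist, so with sex as a term that difference rests on lymphomas 3 to 5. The cause of the other changes was not tested.

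Differences near 0 changed sign, none of them called. Between DN3 groups Nkg7 (-0.31) was 0.03 with sex as a term and -0.55 to 0.03 with 1 array left out, and Fcer1g -0.06 to 0.00. In the lymphomas over wild-type cells Fcer1g was -0.04 with the replicate block and -0.02 to 0.05 with 1 array left out, and Prf1 -0.03 to 0.37. Over TCF-1 KO DN3 cells the replicate block gave Gzma 0.16, Prf1 0.03, Fcer1g -0.02 and Tyrobp -0.01. Lymphomas 4 to 6 have no DN3 array of their number, so with this block both lymphoma comparisons rest on lymphomas 1 to 3. Against TCF-1 KO DN3 cells centring gave Gzma 0.05, and leaving out 1 array gave Gzma -0.09 to 0.07 and Tyrobp -0.12 to 0.14. For lymphomas the replicate number was not read as a pairing. Arrays of number 2 deviated apart from their wild-type and TCF-1 KO DN3 counterparts (r = -0.22 and -0.26). Those of number 1 deviated together (0.44 and 0.38), and those of number 3 less so (0.15 and 0.11). Number 1 shares a batch and lymphoma 2 lies in another batch than DN3 replicate 2, so batch and pairing cannot be told apart there. The correlation of Gzmb and Prf1 was -0.03 as rho, and that of Tbx21 and Eomes 0.42 without 2 tumours. Averaged rows changed nothing for these genes, which have 1 row each. For Gzmb, Eomes and Klrd1, near the array's floor, small changes cannot be seen. This holds as well for Fcer1g, whose mean over all arrays, 4.88, was just above the filter.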
